A study of Homo sapiens with 6 samples.

Results

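SPINT2 and SPINT1 encode the Kunitz-type inhibitors HAI-2 and HAI-1, and PRSS22, PRSS8 and ST14 encode serine proteases of epithelial cells. These 5 genes, of 24462 gene symbols measured, were followed in MDA-MB-231 cells transfected with a miR-200a mimic, with or without an ELK3 plasmid. All 5 were found by symbol in each library. SPINT2 and PRSS22 were picked for their own values, which rose with miR-200a and fell back in libraries labelled as having the plasmid as well (called ELK3-labelled below), so their changes are given as a description without a test. SPINT1, PRSS8 and ST14 were included for their function. A filter on low counts kept 12650 symbols, among them 3 of the 5 genes, namely SPINT2, PRSS22 and SPINT1.

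MDA-MB-231 is an established human breast cancer line of the triple-negative type, which lacks the estrogen and progesterone receptors and ERBB2 amplification and has a mesenchymal shape. RNA was taken 48 h after transfection from 3 groups of 2 libraries each. The first group received a negative control (NC) mimic, the second the miR-200a mimic at 100 nM, and the third the miR-200a mimic at 100 nM together with 30 ng of a pcDNA3.1 plasmid that carries the ELK3 coding sequence. All 3 groups were transfected cells of the same line, so every comparison is between transfected cultures, and no library of the ELK3 plasmid without miR-200a was analysed here. The libraries were made with a QuantSeq kit, which primes from the poly(A) tail and reads near the 3′ end of a transcript, so counts do not grow with transcript length.

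A Kunitz domain is a small fold that enters the active site of a trypsin-like protease and blocks it. HAI-1 and HAI-2 sit in the membrane of epithelial cells, where they hold matriptase, the product of ST14, and prostasin, the product of PRSS8, in check. These proteases cut and activate pro-forms of growth factors and proteases at the cell surface, among them hepatocyte growth factor (HGF) and urokinase, and they cleave protease-activated receptor 2 and EpCAM. PRSS22 encodes a tryptase of airway and other epithelia. The miR-200 family represses the zinc finger factors ZEB1 and ZEB2, which repress epithelial genes, and ELK3 is an ETS-family transcription factor.

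The mature miR-200a that the mimic stands for is shown because its seed guides the pairing with transcripts. It lies at chr1:1167916-1167937 on the plus strand of GRCh38.p14 (RefSeq), and the capitals mark the seed, bases 2 to 8.
hsa-miR-200a-3p: uAACACUGucugguaacgaugu
hsa-miR-141-3p: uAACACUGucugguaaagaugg
The miR-141 sequence, at chr12:6964155-6964176 on the plus strand, shares that seed. A transcript paired with the seed holds CAGTGTT. Searched in the longest GENCODE 3′ untranslated region of each gene, on the transcript strand, CAGTGTT was found 0 times in SPINT2 (608 nt), SPINT1 (1232 nt), PRSS22 (366 nt), PRSS8 (576 nt) and ST14 (553 nt). Among 19113 genes with such a region, 3487 or 18.2% held at least 1 match. This share covers regions of all lengths and was not matched to those of the 5 genes. For comparison, the ELK3 region of 2655 nt held 1 match, that of ZEB1 (2549 nt) 3 and that of ZEB2 (5370 nt) 4. These 3 regions are longer than those of the 5 genes and so have more places for a match. The ELK3 match and the first ZEB1 match are printed with their flanks, the match in capitals, since they show what the 5 genes lack in these windows.
ELK3: gtctgcttaatCAGTGTTaaactgctatg
ZEB1: atcatcagaatCAGTGTTtgtgattgtgt
A match is a description of letters and not a measured site.

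Total counts were 3055915 to 4868004 per library, and 3 counts, the floor used here, stood for 0.611 to 0.979 CPM. CPM, the unit of level used here, is the count as a share of the library total after scaling by the trimmed mean of M-values (TMM). Replicate libraries differed by a root mean square of 0.403 (NC mimic), 0.342 (miR-200a) and 0.558 (ELK3-labelled) on the log2 CPM scale, and by 2.38, 1.90 and 13.4 times the variance of counting alone, so each pair differed by more than counting noise. The labels do not say that the libraries of a group came from separate cultures, so p-values measure only the spread between these libraries, which may be technical. In these bulk libraries, fewer cells that make an RNA and less RNA per cell cannot be told apart. Of the markers looked up, VIM, AXL, CAV1, CD44, MSN and EGFR, known in this line, had at least 589 counts in each library. Mean VIM levels were 2310 ± 216, 2214 ± 90.9 and 1405 ± 635 CPM in the NC mimic, miR-200a and ELK3-labelled groups (SD, n = 2 each). The ELK3-labelled libraries lay far apart for VIM, at 1854 and 956 CPM. ESR1 was at 0 counts in all 6 libraries. Some epithelial markers were present, with group means of 186 to 234 CPM for CLDN4, 79.5 to 115 CPM for KRT8 and 28.6 to 45.3 CPM for ERBB2. Among markers of other cell types, the leukocyte gene PTPRC had 0 to 10 counts a library and the endothelial gene PECAM1 3 to 13, whereas COL1A1, a fibroblast gene, had 81 to 198, and their part in the results was not tested. CDH1, the E-cadherin gene, had 1 and 0, 11 and 12, and 3 and 3 counts in the NC mimic, miR-200a and ELK3-labelled libraries.

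ELK3 itself, the gene on the plasmid, was counted 618 and 509 times in the NC mimic libraries, 493 and 505 times with miR-200a, and 406 and 337 times in the ELK3-labelled libraries. Mean levels were 152 ± 20.1, 103 ± 0.382 and 87.7 ± 12.0 CPM (SD, n = 2 each). ELK3 RNA was thus not higher in the ELK3-labelled libraries than in the miR-200a libraries (log2 fold change -0.23, SE 0.15, adjusted p = 0.354, edgeR quasi-likelihood test). Against the NC mimic it was lower in the ELK3-labelled libraries (-0.79, SE 0.15, adjusted p = 0.0117, edgeR), where 12.9% of symbols passed. With miR-200a versus NC mimic the change was -0.56 (SE 0.15, adjusted p = 0.232, edgeR) and did not pass. The plasmid lacks the ELK3 3′ untranslated region, where this assay reads, so its transcript need not add to the count and the count does not check the label. These libraries are therefore called ELK3-labelled, after their label and not after a rise of ELK3 in these counts. By qRT-PCR and western blot, the paper reported ELK3 mRNA and protein back at the control level with co-transfection.

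Of the inhibitors, SPINT2, the gene of HAI-2, was counted 57 and 51 times in the NC mimic libraries, 319 and 332 times with miR-200a, and 113 and 67 times in the ELK3-labelled libraries. Its levels were 12.7 and 16.6, 66.2 and 67.6, and 26.8 and 15.7 CPM. The miR-200a libraries were alone at the top and agreed closely, while the ELK3-labelled libraries lay on either side of the higher NC mimic library.

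**Figure D1:**
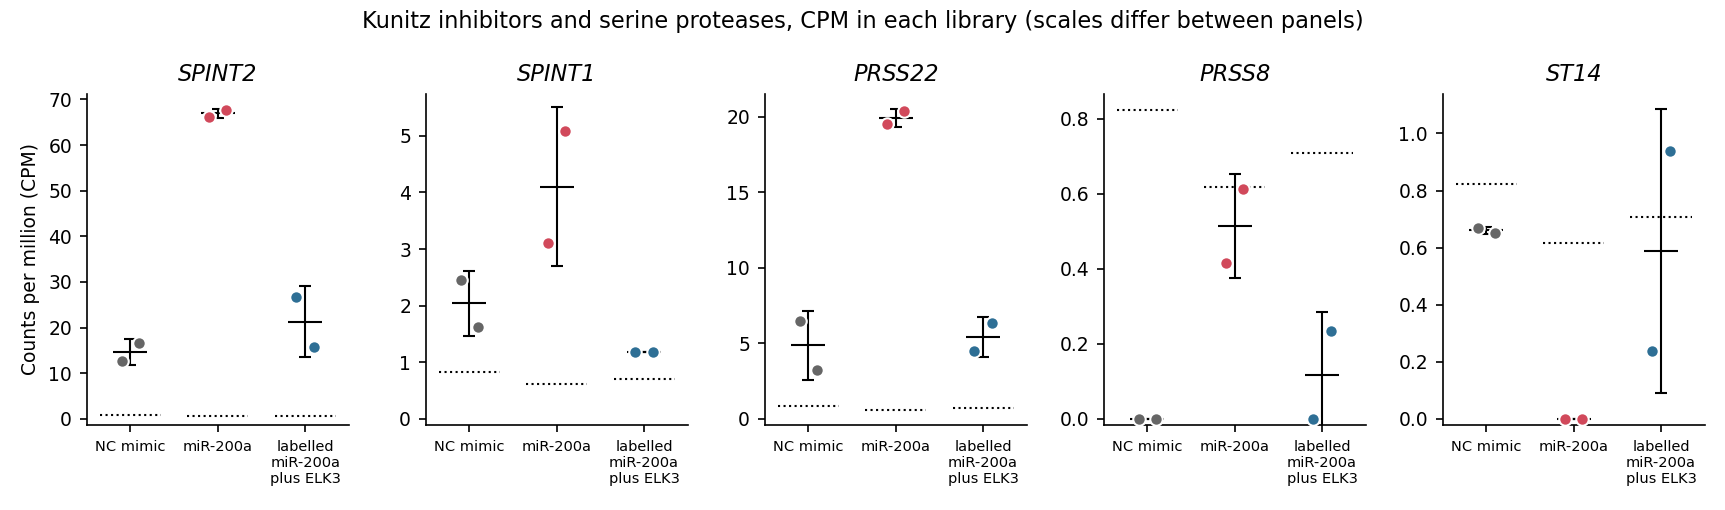
Level in CPM (vertical axis, own scale in each panel) of the 5 genes in the 2 libraries of each group. Points are libraries, the horizontal tick and bar are the mean and SD (the lower bar of PRSS8 is cut at 0), and the dotted line is the mean floor of 3 counts. SPINT2 and PRSS22 stood highest in the miR-200a libraries, whereas PRSS8 and ST14 lay at or near the floor in all groups.

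Mean SPINT2 levels were 14.7 ± 2.79 CPM with the NC mimic, 66.9 ± 1.00 CPM with miR-200a and 21.3 ± 7.79 CPM in the ELK3-labelled libraries (SD, n = 2 each). The level with miR-200a was 4.56 times that with the NC mimic, and between 3.98 and 5.33 times over the 4 pairs of libraries. The level in the ELK3-labelled libraries was 3.15-fold lower than with miR-200a, and 2.47-fold to 4.30-fold lower over pairs. Against the NC mimic it was 1.45 times as high, but these libraries overlapped, with pair ratios of 0.946 to 2.11. In order of mean level the groups were miR-200a, ELK3-labelled and NC mimic, an order that the choice of SPINT2 fixed in part, and the last pair overlapped.

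The fitted log2 fold changes of SPINT2 were 2.21 (SE 0.26) for miR-200a versus NC mimic, -1.65 (SE 0.24) for ELK3-labelled versus miR-200a, and 0.55 (SE 0.27) for ELK3-labelled versus NC mimic. By size of rise in the first of these comparisons it ranked 23 of 12650 symbols, and by size of fall in the second 182. The 3 comparisons share libraries, and the third change is the sum of the other two. Of the rise in mean CPM with miR-200a, 12.6% was left in the ELK3-labelled libraries, and the share was 23.1% in replicate 1 and 2.06% in replicate 2.

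SPINT1, the other membrane Kunitz inhibitor, was counted 11 and 5 times with the NC mimic, 15 and 25 times with miR-200a, and 5 and 5 times in the ELK3-labelled libraries. Its levels were 2.45 and 1.63, 3.11 and 5.09, and 1.18 and 1.18 CPM. The order of groups was that of highest with miR-200a, then the NC mimic, then ELK3-labelled, and no 2 groups overlapped in CPM. Replicate 2 of the NC mimic and both ELK3-labelled libraries had 5 counts each, so they were apart in CPM only by library size. The share of all symbols without such overlap was not counted. SPINT1 passed the filter mainly through its miR-200a counts, so its place among the tested genes already favoured a high value there.

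Mean SPINT1 levels were 2.04 ± 0.579, 4.10 ± 1.40 and 1.18 ± 0.00640 CPM (SD, n = 2 each). The fitted log2 fold change was 0.96 (SE 0.49) for miR-200a versus NC mimic and did not pass the threshold of an adjusted p of 0.05 (adjusted p = 0.613, edgeR). In that comparison 34 of 12650 symbols passed, or 0.269%. For ELK3-labelled versus miR-200a it was -1.78 (SE 0.53, adjusted p = 0.0536) and did not pass the threshold, which 12.9% of symbols passed. Upper-quartile scaling (adjusted p = 0.0494) and the fit without a filter (adjusted p = 0.032, where 13.4% of symbols passed) brought it past the threshold. The 2 compared groups alone (adjusted p = 0.0912) and a replicate block (adjusted p = 0.0805) did not, all by edgeR. With the filter, a fall from the group through which SPINT1 passed was favoured. This does not apply to the fit without it. For ELK3-labelled versus NC mimic the fitted change was -0.81 (SE 0.61, adjusted p = 0.402), where 12.9% of symbols passed. At 5 to 25 counts a library, counting error alone was large for this gene.

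**Figure D2:**
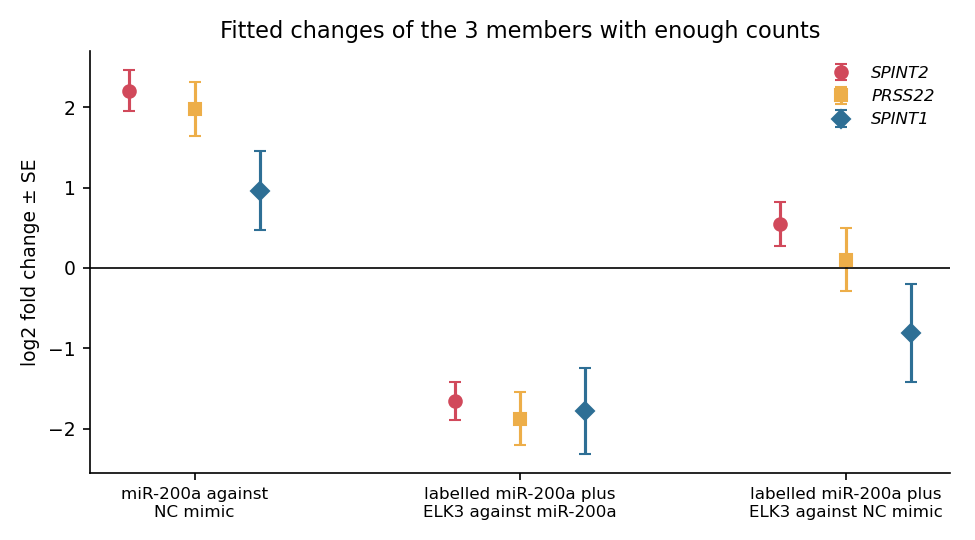
Fitted log2 fold change (vertical axis) of SPINT2, PRSS22 and SPINT1 in the 3 comparisons, with bars of 1 SE from the edgeR fit over 6 libraries. SPINT2 and PRSS22 were near 2 for miR-200a versus NC mimic and below -1.6 for ELK3-labelled versus miR-200a, and the values of SPINT1 had the same signs there with wider bars for their size.

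Of the proteases, PRSS22 showed the pattern of SPINT2 at lower counts. It was counted 29 and 10 times with the NC mimic, 94 and 100 times with miR-200a, and 19 and 27 times in the ELK3-labelled libraries, which were 6.46 and 3.26, 19.5 and 20.4, and 4.50 and 6.35 CPM. Both miR-200a libraries lay above the other 4, and the other two groups overlapped, since both ELK3-labelled libraries lay between the NC mimic libraries.

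Mean PRSS22 levels were 4.86 ± 2.26 CPM with the NC mimic, 19.9 ± 0.608 CPM with miR-200a and 5.42 ± 1.31 CPM in the ELK3-labelled libraries (SD, n = 2 each). With miR-200a the level was 4.10 times that with the NC mimic (3.02 to 6.24 over pairs), and in the ELK3-labelled libraries it was 3.68-fold lower than with miR-200a (3.08-fold to 4.53-fold over pairs). Against the NC mimic the ratio was 1.12, with pair ratios of 0.697 to 1.94. The fitted log2 fold changes were 1.98 (SE 0.34), -1.87 (SE 0.33) and 0.10 (SE 0.39) in the same order. PRSS22 ranked 31 by rise in the first comparison and 125 by fall in the second. Of its rise in mean CPM, 3.72% was left in the ELK3-labelled libraries, with -2.39% in replicate 1 and 9.84% in replicate 2.

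PRSS8, the prostasin gene, was counted 0 and 0 times with the NC mimic, 2 and 3 times with miR-200a, and 0 and 1 times in the ELK3-labelled libraries. No library was above the floor of 3 counts, so no fold is given. Counts of 0 in the NC mimic libraries allow levels of up to 0.668 and 0.979 CPM. ST14, the matriptase gene, was counted 3 and 2 times with the NC mimic, 0 and 0 times with miR-200a, and 1 and 4 times in the ELK3-labelled libraries. Here the miR-200a libraries were the lowest, and counts of 0 allow up to 0.623 and 0.611 CPM. Only 1 library, replicate 2 of ELK3-labelled, was above 3 counts. In the fit without a filter the adjusted p-values for the 3 comparisons were 0.864, 0.665 and 0.740 for PRSS8 and 0.690, 0.267 and 1 for ST14 (edgeR). Differences of these 2 genes were not detectable at this depth. Intervals and floors cover counting error only, since the sources used here name no molecular identifiers.

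Beyond the 5 genes, 114 further genes in 7 lists were described. The lists hold other proteases, their inhibitors and substrates, and also regulators of the epithelial and mesenchymal states, so they are not 1 pathway. They were chosen with earlier results of these data known. Their counts beside those of all symbols are therefore a description and no independent support. Of the 114, 38 had 0 counts in all 6 libraries and 40 passed the filter. The proteases were the sparsest. None of the 17 other type II transmembrane serine proteases, the family of matriptase, passed the filter, and 8 of them were at 0 throughout. TMPRSS5 had 4 to 9 counts a library, TMPRSS7 0 to 10 and TMPRSS11A 0 to 6. HPN, which encodes hepsin, another protease that HAI-1 and HAI-2 inhibit, was counted 0 and 1 times with the NC mimic, 5 and 10 times with miR-200a, and 0 and 1 times in the ELK3-labelled libraries. HPN counts were thus highest with miR-200a, but did not pass the filter.

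Of the 16 genes listed as kallikreins, mostly secreted serine proteases of glands and skin, 15 were at 0 throughout. KLK1 had a single count in 1 miR-200a library. Of 14 other tryptase-like and GPI-anchored proteases, 3 were tested, and none passed in any comparison. PRSS23, a secreted protease, was the most abundant, with 1575 ± 155 CPM with the NC mimic, 1782 ± 4.77 CPM with miR-200a and 1259 ± 379 CPM in the ELK3-labelled libraries (SD, n = 2 each). Its log2 fold change for ELK3-labelled versus miR-200a was -0.50 (SE 0.17, adjusted p = 0.085, edgeR). PRSS27, a tryptase close to PRSS22, was not tested.

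In miR-200a versus NC mimic, 0 of the 40 tested listed genes passed the threshold by edgeR, against 0.269% of all symbols. By an unadjusted p under 0.05 there were 15 of 40, where 1169 or 9.24% of all symbols had one, and DESeq2 called 3, where it called 88 or 0.696% of all symbols. The median log2 fold change of the 40 was 0.11, beside -0.02 over all symbols. As the lists were chosen with earlier results known, these shares are a description only. The 15 went both ways, with falls of SERPINB2, COL7A1, KLF5, ZEB1 and ZEB2 and rises of the rest. The largest change was the fall of SERPINB2, at -1.62 (SE 0.39, adjusted p = 0.155, edgeR). The highest values were those of ELF3, an epithelial ETS factor, at 1.49 (SE 0.26, adjusted p = 0.0557), and EPCAM, a surface protein that matriptase cleaves, at 1.43 (SE 0.26, adjusted p = 0.0713). EPCAM was counted 39 and 40 times in the NC mimic libraries, 140 times in each miR-200a library, and 93 and 72 times in the ELK3-labelled libraries. EPCAM, F2RL1 and MST1R are named here after their values were seen. The ZEB genes, whose transcripts hold the seed match, had values of -0.44 (SE 0.16, adjusted p = 0.426) for ZEB1 and -0.85 (SE 0.35, adjusted p = 0.511) for ZEB2. Without either of the ELK3-labelled libraries, and so with the spread of the other libraries, 14 listed genes passed, 10 higher and 4 lower, where 990 or 1001 of all symbols did (7.83% or 7.91%).

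In ELK3-labelled versus miR-200a, 13 of the 40 tested listed genes fell and 0 rose, or 32.5%. Over all symbols 12.9% passed, and 5.91% passed as lower. The lists were chosen with earlier results known, so this difference is no independent support. The median of the listed genes was -0.50, beside 0.02 over all symbols. Of all calls, 45.7% were lower, and 58.6% with upper-quartile scaling, under which 15 listed genes fell and 0 rose. The count was 0 without either miR-200a library, where at most 0.387% of all symbols passed, and 6 without either NC mimic library, where at most 4.53% did. It was 25 (23 of them lower) without replicate 1 and 19 without replicate 2 of ELK3-labelled, where 37.4% and 22.5% of all symbols passed, so the number of calls rose in general.

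Among the other Kunitz genes, 3 of 7 tested fell. TFPI2, a secreted inhibitor of plasmin and trypsin, was counted 164 and 103 times with the NC mimic, 145 and 143 times with miR-200a, and 49 and 44 times in the ELK3-labelled libraries. Its group means were 35.1 ± 2.06, 29.6 ± 0.684 and 10.97 ± 0.894 CPM (SD, n = 2 each), and the log2 change from miR-200a was -1.43 (SE 0.21, adjusted p = 0.00405, edgeR). Unlike that of SPINT2, the mean of TFPI2 in the miR-200a group was below the NC mimic mean, and its lowest libraries were the ELK3-labelled ones. TFPI, which inhibits the tissue factor pathway of clotting, went from 164 ± 5.54 to 108 ± 28.6 CPM, a log2 change of -0.60 (SE 0.17, adjusted p = 0.0476), and lay close to the 109 ± 1.84 CPM of the NC mimic. COL6A3, a collagen chain that ends in a Kunitz domain, fell from 24 and 26 counts to 7 and 3 (adjusted p = 0.024, edgeR). APP and APLP2, membrane proteins with a Kunitz domain in some isoforms, had values of -0.24 and -0.09 and did not pass (adjusted p = 0.254 and 0.669).

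Of 13 tested substrates and receptors, 2 fell. CLDN7, a tight junction claudin that binds EpCAM, had a log2 change of -1.21 (SE 0.19, adjusted p = 0.0058, edgeR), and PLAUR, the urokinase receptor, of -0.62 (SE 0.15, adjusted p = 0.0231). PLAU, which encodes urokinase, was counted 2945 and 2019 times with the NC mimic, 5450 and 5757 times with miR-200a, and 3539 and 1298 times in the ELK3-labelled libraries. The miR-200a libraries were again the highest, but the ELK3-labelled libraries lay far apart, and neither the difference of 0.81 (SE 0.33, adjusted p = 0.498) with miR-200a nor that of -1.01 (SE 0.33, adjusted p = 0.0715) after it passed. F2RL1, which encodes protease-activated receptor 2, had 119 and 130, 320 and 314, and 202 and 63 counts, with values of 0.94 (SE 0.40, adjusted p = 0.520) and -1.06 (SE 0.40, adjusted p = 0.106). SPINT2, PLAU and F2RL1 were all higher in replicate 1 than in replicate 2 of ELK3-labelled. Others were lower in replicate 1, among them PRSS22 (4.50 and 6.35 CPM), MET (153 and 179 CPM) and EGFR (160 and 208 CPM). The share of all symbols in each direction was not counted. MET, the HGF receptor, had means of 159 ± 0.533, 164 ± 6.83 and 166 ± 18.6 CPM (SD, n = 2 each), and HGF had 0 counts in all 6 libraries.

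**Figure D3:**
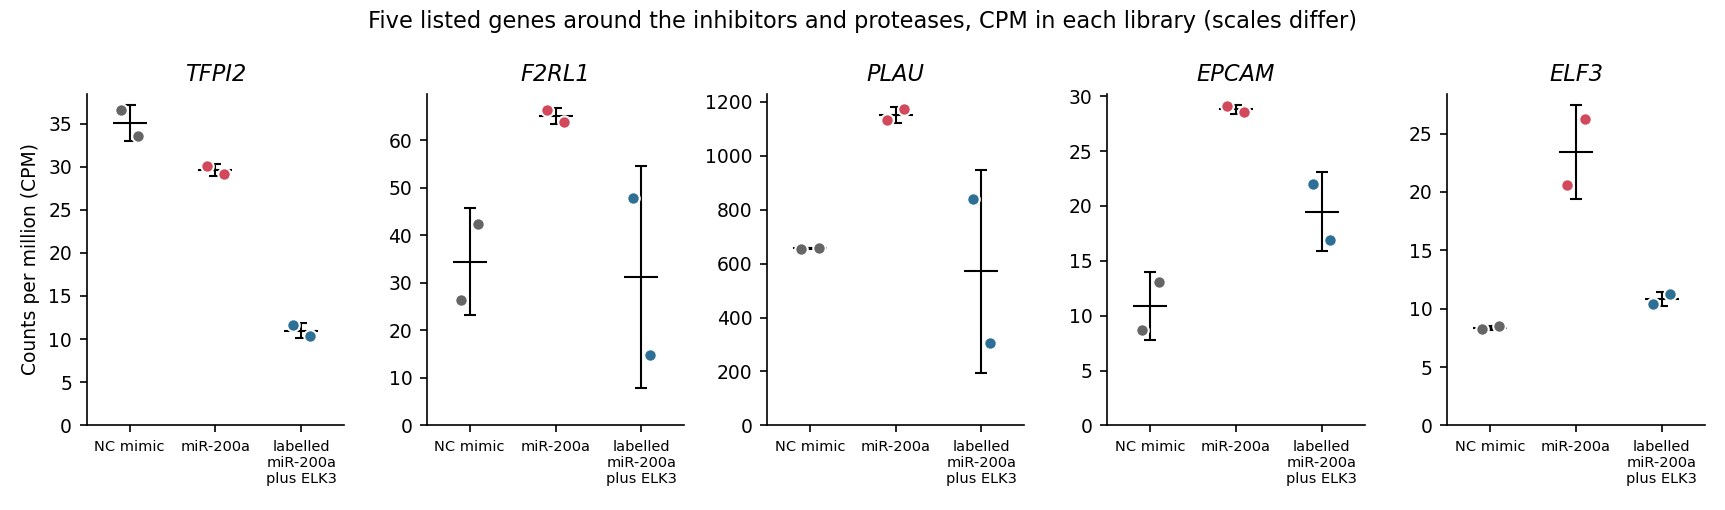
Level in CPM (vertical axis, own scale in each panel, starting at 0) of TFPI2, F2RL1, PLAU, EPCAM and ELF3 in the 2 libraries of each group, with the mean and SD. The miR-200a libraries were highest for F2RL1, PLAU, EPCAM and ELF3, whereas TFPI2 was lowest in the ELK3-labelled libraries and its miR-200a mean lay below the NC mimic mean.

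Of 9 tested serpins, inhibitors of another fold, 3 fell. SERPINB2, an inhibitor of urokinase, fell from 19 and 15 counts to 4 and 1 (adjusted p = 0.0254, edgeR), and the NC mimic libraries held 49 and 33. SERPINB9, an inhibitor of granzyme B, had a change of -0.85 (SE 0.25, adjusted p = 0.0486). SERPINB2 did not stand highest with miR-200a, unlike SPINT2.

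Of 8 tested regulators of the epithelial and mesenchymal states, 5 fell. They were the epithelial factors ELF3, with a log2 change of -1.11 (SE 0.25, adjusted p = 0.019, edgeR), EHF, with -0.99 (SE 0.28, adjusted p = 0.0469), and KLF5, with -0.97 (SE 0.19, adjusted p = 0.0137), and also the mesenchymal factors SNAI1, with -1.63 (SE 0.33, adjusted p = 0.0145), and SNAI2, with -1.06 (SE 0.16, adjusted p = 0.00446). Epithelial and mesenchymal factors were thus both among those that fell. The rest of the 8 had values above 0 and did not pass. Among them were ZEB1, with 0.21 (SE 0.16, adjusted p = 0.414, edgeR), and ZEB2, with 0.06 (SE 0.37, adjusted p = 0.928). ELF3 was counted 37 and 26 times in the NC mimic libraries, 99 and 129 times after miR-200a, and 44 and 48 times in the ELK3-labelled libraries. GRHL2, which drives epithelial genes, had a single count in 1 of the 6 libraries.

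**Figure D4:**
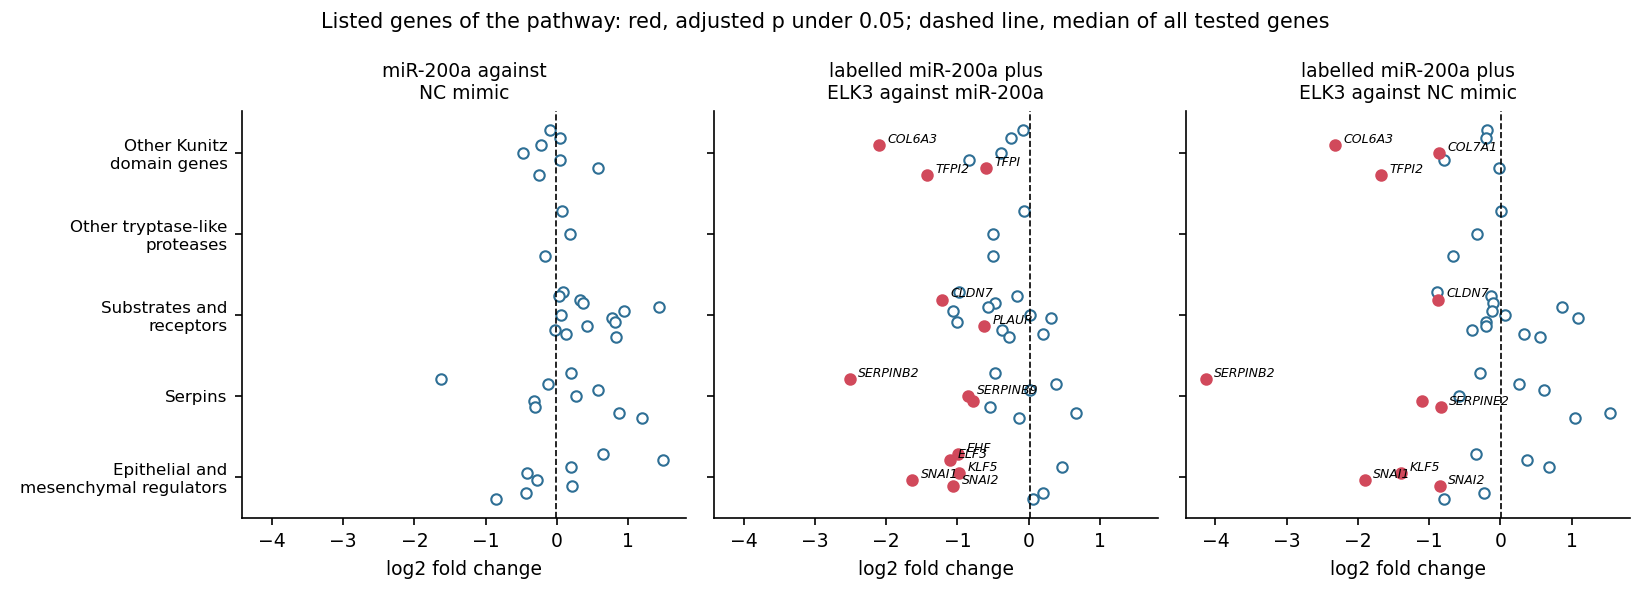
Fitted log2 fold change (horizontal axis) of the 40 tested listed genes in the 3 comparisons, grouped by list (vertical axis). Red points passed an adjusted p of 0.05 and are named apart from 1 serpin, open points did not, and the dashed line is the median of all 12650 tested symbols. No listed gene passed for miR-200a versus NC mimic, and the 13 and 10 that passed in the other panels all lay to the left.

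In ELK3-labelled versus NC mimic, 10 of the 40 tested listed genes fell and 0 rose, or 25%, where 12.9% of all symbols passed and 5.95% passed as lower. The median was -0.22, beside 0.01 over all symbols. Here too the lists were chosen with earlier results known. Among the 10 were COL6A3, COL7A1, TFPI2, CLDN7, SERPINB2, SERPINE2, KLF5, SNAI1 and SNAI2. TFPI2 changed by -1.68 (SE 0.21, adjusted p = 0.00157, edgeR) and KLF5 by -1.39 (SE 0.19, adjusted p = 0.0027). COL7A1, the anchoring fibril collagen, changed by -0.87 (SE 0.17, adjusted p = 0.0118), and SERPINE2, a thrombin and plasmin inhibitor, by -0.84 (SE 0.20, adjusted p = 0.0241). These genes lay below the NC mimic libraries, which follows from naming them as lower calls of this comparison. The SPINT2 and PRSS22 libraries overlapped with those of the NC mimic here, and both genes were picked in part for falling back. EPCAM was not called in this comparison, and its value was 0.87 (SE 0.27, adjusted p = 0.0614). MST1R, the receptor of macrophage stimulating protein, had 1.09 (SE 0.34, adjusted p = 0.06). Lower calls made up 46.2% of all calls, and 57.1% with upper-quartile scaling. The count of listed genes was 2 without either NC mimic library, and 22 (17 of them lower) or 18 (14 of them lower) without replicate 1 or 2 of ELK3-labelled, where at most 0.719% and then 37.3% or 22.7% of all symbols passed.

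The genes whose profiles were nearest to SPINT2 and PRSS22 were sought among all tested symbols, by the root mean square difference between log2 CPM profiles centred over the 6 libraries. Nearest to SPINT2 were RAB11FIP4 (0.279), CST1 (0.282), FAXDC2 (0.369), TC2N (0.375) and CX3CL1 (0.381), where the median over all symbols was 1.00. RAB11FIP4 was counted 3 and 6, 28 and 32, and 13 and 4 times in the NC mimic, miR-200a and ELK3-labelled libraries. CST1, which encodes a secreted cystatin that inhibits cysteine proteases, was counted 4 and 2, 27 and 26, and 7 and 2 times. CX3CL1, a membrane-bound chemokine, was counted 7 and 15, 47 and 48, and 18 and 13 times. PRSS22 was number 32 in this order (0.519) and SPINT1 number 194 (0.681). SPINT2 and PRSS22 were picked for the same pattern, and SPINT1 passed the filter mainly through its miR-200a counts. Their places in this order thus follow in part from the choice.

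Nearest to PRSS22 were TMC8 (0.257), C10orf54 (0.298), LOC115110 (0.324), CLIC3 (0.343) and FAM83B (0.347), with a median over all symbols of 0.997. TMC8 was counted 26 and 10, 56 and 83, and 20 and 24 times, and CLIC3, a chloride channel family protein, 31 and 15, 61 and 88, and 20 and 30 times. Like PRSS22, both had more counts in replicate 1 than in replicate 2 of the NC mimic. SPINT2 was number 45 and SPINT1 number 59 (0.540) in the order for PRSS22, places that the choice and the filter likewise fixed in part. These values describe 6 libraries, and most of the genes named had few counts.

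**Figure D5:**
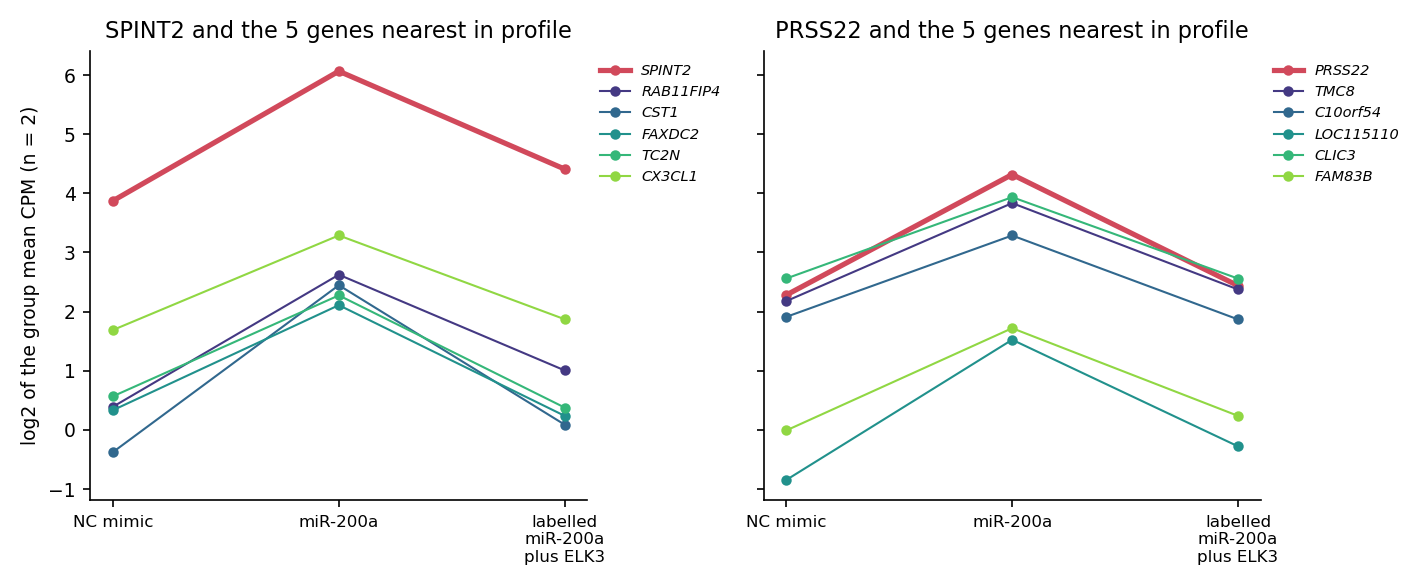
Level as log2 of the group mean CPM (vertical axis, n = 2 libraries a group) of SPINT2 and PRSS22 and of the 5 genes nearest to each in profile. All 12 lines peaked in the miR-200a group, as the choice by likeness makes them do, and SPINT2 lay above the 5 genes drawn with it.

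Genes beside the 5 on their chromosome were read for their order only. SPINT2 on chromosome 19 lies between PPP1R14A and YIF1B. PPP1R14A had 0 counts in all 6 libraries, and YIF1B had 422 and 250, 702 and 694, and 620 and 750 counts, with more in each miR-200a and ELK3-labelled library than in either NC mimic library. SPINT1 on chromosome 15 lies beside PPP1R14D, with 0 to 2 counts. PRSS22 on chromosome 16 lies between PRSS30P, with 2 to 7 counts, and FLYWCH2, with 11 to 43 counts. PRSS8, also on chromosome 16, lies between KAT8, with 20 to 58 counts, and PRSS36, with 0 to 2. ST14 on chromosome 11 lies between APLP2, with 5082 to 7717 counts, and ZBTB44, with 124 to 313.

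Promoter sequences of 250 bases before to 50 after a start were matched for SPINT1 alone of the 5 genes, with 2 entries (RefSeq, GRCh38.p14). Each was searched over its whole length on both strands for the E-box CACCTG, read by ZEB and SNAI factors, the ETS letters CCGGAAG and the GRHL motif AACCGGTT. The first entry held none of them, and the second held 1 E-box and neither of the others. Of 27305 genes, taken by their first entry, 20.6% held the E-box, 10.7% the ETS letters and 0.117% the GRHL motif. No match says only that these letters are not in this window.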

How the data were processed

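RNA was measured in MDA-MB-231 cells, 2 libraries in each of 3 groups taken from the sample labels. The deposited files hold 1 raw count for each gene symbol and library, as whole numbers the authors had not normalized. The submitters' processing notes name Bowtie2, edgeR and the build hg19. The counting program and annotation are not given in the sources used here. The 286 symbols on several lines were summed, none of them a member. The 5 genes, the lists and the tests were chosen with earlier results of these data known.

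Counts were fitted in R 4.3.3 with edgeR 4.0.16 (TMM, filterByExpr with a minimum count of 10, quasi-likelihood test, 3 residual degrees of freedom, 1 model of all 6 libraries). P-values were adjusted by Benjamini-Hochberg over 12650 symbols. SPINT2 and PRSS22 were chosen by this contrast and were given no p. The fit was tested on simulated data.

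Named were the 5 genes, from each list the genes past the threshold and up to 4 more of highest mean count, the 5 genes nearest to SPINT2 and to PRSS22, and the chromosomal neighbours. Some of these genes, neighbours included, are not reported here by name. Alternatives were DESeq2 1.42.0, DESeq2-type (RLE) and upper-quartile factors, no filter, 10 counts in every library, the 2 compared groups alone, a replicate block and each library left out. 3′ untranslated regions were those of GENCODE on GRCh38, used for sequence only, since the counts are on hg19. Floors were 3 counts a library. Protein sequences are not analysed here.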

Additional observations from a re-analysis of the deposited data

How the results depend on the processing

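Over 14 alternatives the log2 fold changes of SPINT2 and PRSS22 moved by up to 0.43 and 0.63. Each shift was smaller than the SD of log2 CPM between replicate libraries in the more variable of the compared groups. That SD was 0.27 to 0.53 for SPINT2 and 0.32 to 0.63 for PRSS22. With 2 libraries a group, the SD and the shift on leaving out 1 library rest on the same difference. The SD could thus hardly be exceeded, and staying below it is no measure of stability. Some shifts, from leaving out 1 library, were larger than the fitted SE. SPINT2 ranged from 2.01 to 2.40 for miR-200a versus NC mimic, from -2.08 to -1.36 for ELK3-labelled versus miR-200a and from 0.15 to 0.87 for ELK3-labelled versus NC mimic. PRSS22 ranged from 1.62 to 2.60, from -2.18 to -1.65 and from -0.25 to 0.73, and in the last comparison its sign turned without replicate 2 of the NC mimic or replicate 2 of the ELK3-labelled group. SPINT1 in ELK3-labelled versus miR-200a passed the threshold with upper-quartile factors (-1.84) and without a filter (-1.79), had no adjusted p in DESeq2, and gave no value where 10 counts were required in every library. The count of listed genes called for miR-200a versus NC mimic was 0, and became 3 with DESeq2, 7 without a filter and 14 with only the compared groups, with 0 to 14 when 1 library was left out. For ELK3-labelled versus miR-200a it was 13, and became 5 with only the compared groups and 0 to 25 when 1 library was left out. For ELK3-labelled versus NC mimic it was 10, and 2 to 22 when 1 library was left out. Where leaving out a library left a group with 1, that library was assumed to vary like the others. Over all symbols, 34, 1637 and 1629 passed in the 3 comparisons, 230, 2490 and 2525 without a filter, 88 in the first of them with DESeq2, and 999, 579 and 598 with only the compared groups, and the ranges were 0 to 1001, 39 to 4730 and 90 to 4721 when 1 library was left out. The cause of these shifts was not tested. Deviations of same-numbered libraries correlated at -0.003, -0.036 and -0.108, so no shared effect of the replicate number was seen. With 2 libraries a group, this cannot tell whether the libraries were handled in pairs. With a replicate block, 0, 11 and 10 listed genes and 13, 1157 and 1170 of all symbols passed. Crossing the numbers of the ELK3-labelled libraries, added after seeing the data, gave 22, 1644 and 1661.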
